A study of Mus musculus and Homo sapiens with 67 samples.

Results

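The cytosolic ribosomal protein genes encode the protein parts of the ribosome outside mitochondria. They were taken from 4 tables of gene expression by symbol. The symbols were RPL or RPS followed by a number, the P-stalk genes RPLP0, RPLP1 and RPLP2, and RPSA. Kinase genes and symbols of pseudogenes were left out, and a mean of at least 10 FPKM was required in the control arm. In mouse this kept Rpl6l, Rps12l1 and Rps3a2, which are named after other members. Rps3a2 was counted as a gene of the ribosome's small subunit. FPKM are fragment counts scaled to transcript length and to the size of the library. The rule kept 79 of 86 matching symbols in PSN1 cells, 78 of 86 in SW1990 cells, 83 of 89 in KPC cells and 83 of 89 in KPC tumours, among 13358, 12913, 12567 and 13545 genes tested in those tables. Just inside the level required stood RPL26L1 in PSN1 (24.8 FPKM) and SW1990 (16.9 FPKM) and Rpl22l1 in KPC cells (16.2 FPKM) and tumours (15.8 FPKM). Just outside it stood RPS29 in PSN1 (8.05 FPKM), RPL39L in SW1990 (9.42 FPKM) and Rps3a3 in KPC cells (3.66 FPKM) and tumours (5.10 FPKM).

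PSN1 and SW1990 are human pancreatic cancer cell lines, and KPC is a mouse pancreatic cancer line from a genetically engineered model. Cells received DMSO as control, tazemetostat (an inhibitor of the histone methyltransferase EZH2), RMC-6236 (an inhibitor of the active, GTP-bound form of RAS) or the combination, with 3 libraries per arm. KPC tumours grown in the mouse pancreas received vehicle or the same drugs, with 4 libraries per arm, and their column headers name the tumour line KPC1199. The labels give no dose, time, mouse age or strain, and do not say whether the cell libraries of an arm came from separate cultures, so p-values for cells measure the spread between these libraries, which may be technical.

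Each ribosome joins a small subunit, which reads the mRNA, to a large subunit, which forms peptide bonds. Cells make the ribosomal proteins in matched amounts, and their mRNAs are among the most abundant of growing cells. These mRNAs begin with a stretch of pyrimidines (the TOP motif) through which mTOR signalling sets their translation, while the factors that assemble ribosomes in the nucleolus are controlled mainly through transcription. A few members have a close relative (RPL22 and RPL22L1, RPS27 and RPS27L, RPL26 and RPL26L1, RPL7 and RPL7L1). Genomes also hold many processed copies of ribosomal protein genes. Pseudogene rows were found by symbol: an ending of P and a number in human (1599 rows) and of -ps in mouse (319). They summed to between 20.1% and 24.3% of the members' summed FPKM in the human libraries and between 15.7% and 17.2% in the mouse libraries. Copies under other symbols were not counted, so the human and mouse values cannot be compared. How fragments shared between a gene and its copies were assigned is not given in the sources used here, so the level of any member with near-identical copies is uncertain.

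Most annotated starts found for the mouse members lie near a run of pyrimidines, and the windows printed here are for members on which the mouse results turn. Sequences are from RefSeq on GRCm38.p6, 30 bases each, 5′ to 3′ on the strand of the gene, with the longest run of C and T within 50 bases of the annotated start in capitals. Of 83 mouse members 60 were matched by symbol, and 48 of those had a run of at least 8 bases, a length reached in 35.7% of all 27018 promoters. With under 80% of the members matched, a comparison of the members with all promoters is void, and none is drawn. The search used the gene's strand only, and an annotated start may differ from the start used in these cells.
Rps2 (chr17:24720083-24720112, plus strand): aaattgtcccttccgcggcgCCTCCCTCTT
Rps27 (chr3:90213632-90213661, minus strand): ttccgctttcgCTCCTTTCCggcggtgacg
Rps27l (chr9:66946053-66946082, plus strand): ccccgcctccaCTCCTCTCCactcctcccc
Rps26 (chr10:128626485-128626514, minus strand): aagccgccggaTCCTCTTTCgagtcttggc
Rpl10 (chrX:74270836-74270865, plus strand): cgtgagcaggcgtgggagcgTCTCTTTTCC
Rpl22 (chr4:152325679-152325708, plus strand): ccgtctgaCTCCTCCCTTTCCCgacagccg
Rpl22l1 (chr3:28805499-28805528, plus strand): cgcaagcccgTTCTCTTCCCacggctgcag
Rpl39 (chrX:37085173-37085202, minus strand): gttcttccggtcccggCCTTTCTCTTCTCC
Rpl41 (chr10:128549119-128549148, minus strand): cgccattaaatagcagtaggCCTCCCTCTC
Rpl7l1 (chr17:46782671-46782700, minus strand): cgtcgaggcgggCCTCTCTaccccgcccgg
The run was 9 bases long in Rps27 and in its relative Rps27l, and 7 in Rpl7l1, the shortest of the windows shown. Counted from the annotated start, the runs of Rpl22, Rpl7l1 and Rps27l began at -39, -32 and -22 and ended upstream of it. Those of Rps2, Rpl10 and Rpl41 began at base 41 and that of Rpl39 at base 37. All of these downstream runs reached the limit of the search, so they may be longer than shown. Whether any run printed here is a TOP motif was not tested.

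The action of RMC-6236 could be checked on genes outside the family. No list of EZH2 target genes was examined, so tazemetostat was not checked. Of 12 genes that report RAS-MAPK signalling, 12 fell under RMC-6236 in PSN1, in SW1990 and in KPC cells, and 11 in the tumours. The list was chosen with earlier results of these data known. Of all genes tested, 34.6%, 41.7%, 35.8% and 19.2% fell in these tables. Epithelial markers were present in all tables, with 6 of 6 at 1 FPKM or more in PSN1, SW1990 and the tumours and 5 of 6 in KPC cells. Marker sums in the tumours moved with the arms: epithelial markers summed to 3070 to 3800 FPKM in control and 1420 to 1950 FPKM under RMC-6236, fibroblast markers to 846 to 1160 and 2950 to 3930 FPKM, and macrophage markers to 499 to 623 and 1170 to 1680 FPKM. In cultured KPC cells, too, epithelial markers summed to 3350 to 3480 FPKM in control and 2840 to 2870 under RMC-6236, and fibroblast markers to 41.4 to 42.4 and 65.3 to 66.4 FPKM. Of the 5 epithelial markers tested in KPC cells, 3 were called lower under RMC-6236 and 2 higher. The epithelial sums in PSN1 were 528 to 542 FPKM in control and 830 to 856 under RMC-6236. In SW1990 they were 1320 to 1400 and 1270 to 1340 FPKM. Of the 6 epithelial markers tested in PSN1, 3 were called higher under RMC-6236 and 2 lower. Of the 6 in SW1990, 3 were called higher and 3 lower. T cell markers reached a mean of 1 FPKM in 0 of 6 cases in control tumours. In bulk RNA, fewer cells of a type and less RNA per cell cannot be told apart. FPKM keep no read totals, so the depth behind each value is unknown.

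In control libraries the members spanned from 24.8 to 854 FPKM in PSN1 (median 146), 16.9 to 916 in SW1990 (median 144), 16.2 to 1446 in KPC cells (median 208) and 15.8 to 1146 in tumours (median 184). RPS2, a small-subunit protein near the mRNA entry site, was highest in the human lines (854 ± 6.49 FPKM in PSN1, mean ± SD, n = 3, and 974, 886 and 888 FPKM in the SW1990 libraries), followed by RPL13A, RPL8 and RPL19. Rplp0, the base of the stalk that recruits elongation factors, was highest in KPC cells (1446 ± 31.8 FPKM, n = 3) and in tumours (1146 ± 26.9, n = 4), followed by its stalk partner Rplp1. In both human lines the lowest member was the relative RPL26L1, and in both mouse tables it was Rpl22l1. Control libraries differed little from each other: the median coefficient of variation over members was 1.23% in PSN1, 4.15% in SW1990, 3.25% in KPC cells and 3.8% in tumours. The order of control levels was much alike in PSN1 and SW1990 (Spearman 0.89 over 78 members) and in KPC cells and tumours (0.98 over 83), and less so in PSN1 and KPC cells (0.62 over 77). These correlations are descriptions over genes, which share libraries, gene length and the counting of copies, and RPS10 in the human tables was the least repeatable member, with a standard error of 0.24 in PSN1 and 0.23 in SW1990 on the log2 scale.

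Together the members took 5.32% to 5.37% of summed FPKM in PSN1 control libraries, 5.33% to 5.46% under tazemetostat, 5.15% to 5.24% under RMC-6236 and 5.20% to 5.31% under the combination. All PSN1 libraries with RMC-6236 therefore lay below all controls, by a small margin. In SW1990 the share was 4.88% to 5.09% in control, 4.62% to 4.70% under tazemetostat, 4.63% to 5.09% under RMC-6236 and 4.39% to 4.55% under the combination. The tazemetostat and combination libraries lay below the controls, and RMC-6236 replicate 1, at 5.09%, stood apart from the other libraries of its arm at 4.63% and 4.72%. KPC cells gave 7.45% to 7.69% in control, 7.08% to 7.41% under tazemetostat, 6.97% to 7.09% under RMC-6236 and 7.17% to 7.50% under the combination. In the tumours, control libraries held 6.93% to 7.17%, tazemetostat 7.07% to 7.47%, RMC-6236 6.13% to 6.69% and the combination 6.08% to 6.53%, so that every tumour with RMC-6236 lay below every control.

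The mitochondrially encoded genes moved with the drug in cells. They took 22.7% to 23.2% of summed FPKM in PSN1 control and 24.2% to 25.2% under RMC-6236, and 26.6% to 28.04% and 31.6% to 32.5% in SW1990. With these genes left out of the denominator, the share of the members under RMC-6236 relative to control was 0.995 in PSN1, 1.03 in SW1990 and 0.951 in KPC cells. The lower share under RMC-6236 alone in PSN1 thus nearly disappeared. The PSN1 combination libraries then held 7.09% to 7.19% against 6.915% to 6.943% in control, so each lay above every control. The SW1990 ratio for RMC-6236 was 0.997 without RMC-6236 replicate 1, which was left out after the data were seen. The part of the mitochondrially encoded genes in the single-gene results was not tested beyond the scalings given with each count.

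**Figure D1:**
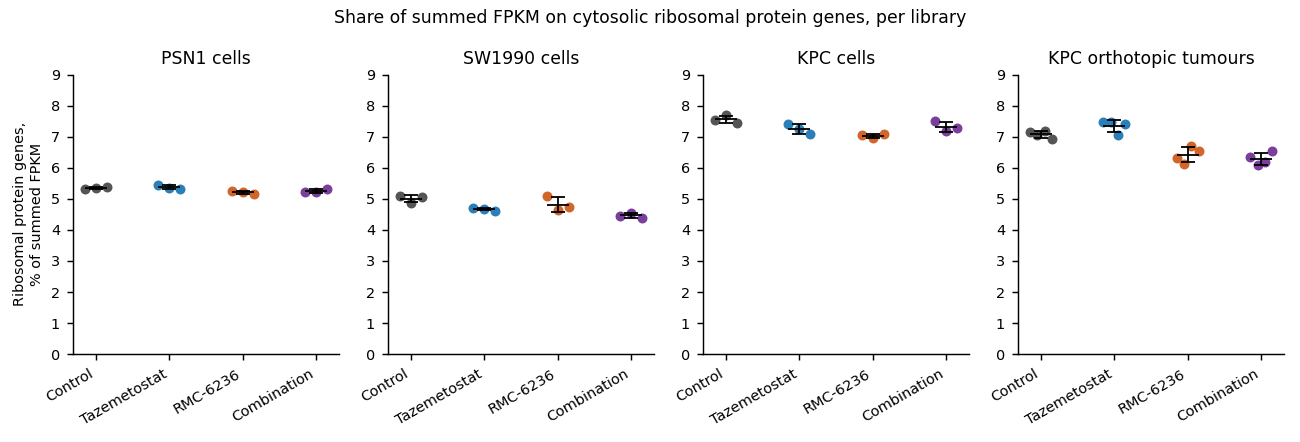
Share of summed FPKM on the cytosolic ribosomal protein genes (y axis, percent) in each library (points) by arm, with the arm mean and SD (black), in the 4 tables. The tumours with RMC-6236 or the combination sit between 6.08% and 6.69%, below the 6.93% to 7.17% of the controls.

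RMC-6236 alone was compared with control to see what blocking RAS did to the family. In PSN1 41 of 79 members fell and 10 rose, while 34.6% of all genes tested fell and 45.8% rose. The median log2 difference of the members was -0.05, against 0.08 over all genes, and 72 of 79 members lay within 0.25 of 0. Of the large-subunit genes 23 of 46 fell, and of the small-subunit genes 15 of 30. With values scaled on nuclear genes outside the family, 35 fell and 15 rose.

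The members that moved furthest in PSN1 were relatives and RPS26. RPL22L1, the relative of RPL22, was at 30.1, 32.8 and 32.0 FPKM in control, 32.6, 32.0 and 34.4 under tazemetostat, 13.9, 13.7 and 13.4 under RMC-6236 and 18.3, 17.2 and 16.7 under the combination. Every library with RMC-6236 lay far below every library without it, the combination lay between, and the control and tazemetostat arms overlapped. The fall was 1.16 ± 0.04 on the log2 scale (limma, SE, adjusted p = 2.6e-11), while RPL22 itself stayed at 31.0 to 31.9 FPKM under RMC-6236 against 30.6 to 31.8 in control. RPL7L1, a nucleolar relative of RPL7, was at 26.5, 25.9 and 26.3 FPKM in control and at 15.2, 15.7 and 15.2 under RMC-6236, and fell by 0.74 ± 0.03 (adjusted p = 7.54e-11). RPS26, a protein at the mRNA exit channel of the small subunit, was at 63.4, 61.6 and 59.6 FPKM in control, at 37.6, 37.6 and 37.7 under RMC-6236 and at 41.6, 42.8 and 42.1 under the combination. It fell by 0.69 ± 0.02 (adjusted p = 2.16e-11), and no library with RMC-6236 reached the level of any control. RPL35, which lies at the exit of the peptide tunnel, fell from 244, 245 and 246 FPKM to 186, 189 and 187, or by 0.38 ± 0.03 (adjusted p = 1.37e-08).

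In the opposite direction, RPL13A, a large-subunit protein, rose in PSN1 from 636, 646 and 648 FPKM to 774, 797 and 777 under RMC-6236 (log2 difference 0.28 ± 0.02, adjusted p = 2.57e-09). RPL28, also of the large subunit, rose from 74.9, 72.7 and 74.1 to 86.8, 88.5 and 87.1 FPKM (0.24 ± 0.02, adjusted p = 1.74e-07). No RMC-6236 library of these genes overlapped a control. RPS9 rose by a smaller amount (0.13), and RPS27, RPS28, RPL3, RPL12, RPS20 and RPLP0 were also called higher.

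In SW1990 the count of members depended on the scaling. As deposited, 23 of 78 members fell under RMC-6236 and 12 rose, against 41.7% of all genes lower and 30.7% higher, with a member median of -0.03 and an all-gene median of -0.06. With median ratio scaling 6 fell and 24 rose, and with scaling on nuclear genes outside the family 13 fell and 19 rose, the member median then being 0.09 and 0.04. The median of all genes itself moved by 0.097 on the log2 scale with median ratio scaling. Without RMC-6236 replicate 1, which stood apart in share, 23 fell and 9 rose.

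RPL7L1 and RPS26 were the lowest members in SW1990, followed by RPL18 (-0.26) and RPL24 (-0.24). The SW1990 calls given here with an adjusted p held under both of those scalings and without any single library. RPL7L1 was at 24.2, 24.6 and 24.7 FPKM in control, 21.1, 20.4 and 20.2 under tazemetostat, 13.2, 14.8 and 14.7 under RMC-6236 and 12.2, 12.5 and 12.03 under the combination. None of its 4 arms overlapped another, and it fell under RMC-6236 by 0.74 ± 0.04 (adjusted p = 4.61e-09). RPS26 went from 61.2, 60.4 and 58.3 FPKM to 42.0, 39.2 and 40.3, a fall by 0.55 ± 0.04 (adjusted p = 2.72e-08). RPL26L1, at 16.5, 17.1 and 16.9 FPKM in control and 13.1, 15.5 and 14.1 under RMC-6236, fell by 0.23 ± 0.05 (adjusted p = 0.00141). Among the members that rose, RPS27, a zinc-binding protein of the small subunit, went from 289, 265 and 301 FPKM to 426, 326 and 345 (0.35 ± 0.08, adjusted p = 0.00181), with replicate 1 the highest. RPS9, a core protein of the small subunit, rose from 82.1, 73.1 and 74.95 to 101, 89.6 and 91.5 FPKM (0.29 ± 0.05, adjusted p = 0.000156). RPL10A rose from 254, 241 and 248 to 285, 280 and 279 FPKM (0.19 ± 0.03, adjusted p = 7.97e-05), whereas in PSN1 it fell by 0.13.

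In KPC cells 38 of 83 members fell under RMC-6236 and 6 rose, against 35.8% and 37.9% of all genes, with a member median of -0.08 and an all-gene median of 0.02. The count of lower members was 24 without RMC-6236 replicate 2. Of the small-subunit genes 20 of 32 fell, and of the large-subunit genes 15 of 46, a difference that was not tested. Rps27l, the relative of Rps27 and a target of p53 in other cells, was at 48.2, 42.3 and 41.9 FPKM in control, 39.9, 40.6 and 35.01 under tazemetostat, 31.2, 32.2 and 27.6 under RMC-6236 and 29.3, 25.5 and 25.6 under the combination. Each of its RMC-6236 and combination libraries lay below every control and tazemetostat library, and RMC-6236 lowered it by 0.53 ± 0.08 on the log2 scale (log2 difference -0.53, adjusted p = 6.07e-05). Rps2 went from 1058, 1037 and 1088 to 811, 805 and 829 FPKM and fell by 0.38 ± 0.02 (adjusted p = 7.89e-09). Rpl41, the shortest ribosomal protein, went from 247, 256 and 241 to 198, 194 and 191 FPKM and fell by 0.35 ± 0.04 (adjusted p = 9.36e-06). Rpl7l1 was at 34.4, 37.0 and 34.7 FPKM in control and 27.4, 28.9 and 27.4 under RMC-6236, a fall by 0.33 ± 0.05 (adjusted p = 2.53e-05).

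Of the members that rose in KPC cells, Rpl10, a late-joining protein of the large subunit, went from 249, 249 and 256 to 304.6, 301 and 316 FPKM (log2 difference 0.29 ± 0.03, adjusted p = 3.12e-06). Rps27 went from 107, 109 and 99.4 to 127, 120 and 123 FPKM (0.23 ± 0.07, adjusted p = 0.00891), opposite to its relative Rps27l. Rpl22 went from 46.1, 46.9 and 42.8 to 52.5, 51.0 and 52.8 FPKM (0.20 ± 0.04, adjusted p = 0.00023). In these 3 genes no RMC-6236 library overlapped a control. Rpl7 and Rps14 were also called higher, at log2 differences of 0.08 and 0.06. Rps26 did not repeat the fall seen in the human lines within the test: it was at 235, 213 and 236 FPKM in control and at 217, 215 and 212 under RMC-6236 (log2 difference -0.08).

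In the tumours under RMC-6236 49 of 83 members fell and 2 rose, against 19.2% and 20.3% of all genes, with a member median of -0.16 and an all-gene median of 0.01, and 77 of 83 differences were below 0. The count of lower members was 27 without control replicate 3 and 30 without RMC-6236 replicate 2. Large-subunit genes (30 of 46) and small-subunit genes (18 of 32) both took part. Beside these counts stand the marker sums above, with epithelial sums lower and fibroblast and macrophage sums higher in every RMC-6236 tumour than in every control, and their part in the members' fall was not tested.

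Rpl32, a large-subunit protein, was at 347, 348, 377 and 345 FPKM in control tumours, 357, 393, 338 and 372 under tazemetostat, 254, 262, 273 and 259 under RMC-6236 and 290, 241, 283 and 264 under the combination. All 8 tumours with RMC-6236 lay below all 8 without it, and the fall under RMC-6236 alone was 0.43 ± 0.06 (adjusted p = 0.000105). Rpl23, another large-subunit protein, went from 321, 300, 334 and 318 to 257, 248, 271 and 256 FPKM and fell by 0.30 ± 0.05 (adjusted p = 0.000465). Rplp0, the most abundant member, stood at 1170, 1168, 1117 and 1128 FPKM in control and 1127, 1023, 1136 and 1109 under RMC-6236, with overlapping arms and a log2 difference of -0.06 that did not pass.

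The exceptions in the tumours were Rps27l and Rpl10. Rps27l was at 29.2, 28.9, 31.9 and 31.8 FPKM in control, 33.5, 35.1, 32.9 and 36.9 under tazemetostat, 34.2, 34.1, 39.6 and 35.6 under RMC-6236 and 45.9, 41.3, 43.4 and 51.4 under the combination. It rose under RMC-6236 by a log2 difference of 0.23 ± 0.07 (adjusted p = 0.0166, or 0.0582 without RMC-6236 replicate 3) and rose further under the combination, which lay above every other tumour. Rpl10 rose from 249, 256, 249 and 245 to 306, 270, 302 and 278 FPKM (0.21 ± 0.06, adjusted p = 0.0097), and all RMC-6236 tumours lay above all controls.

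**Figure D2:**
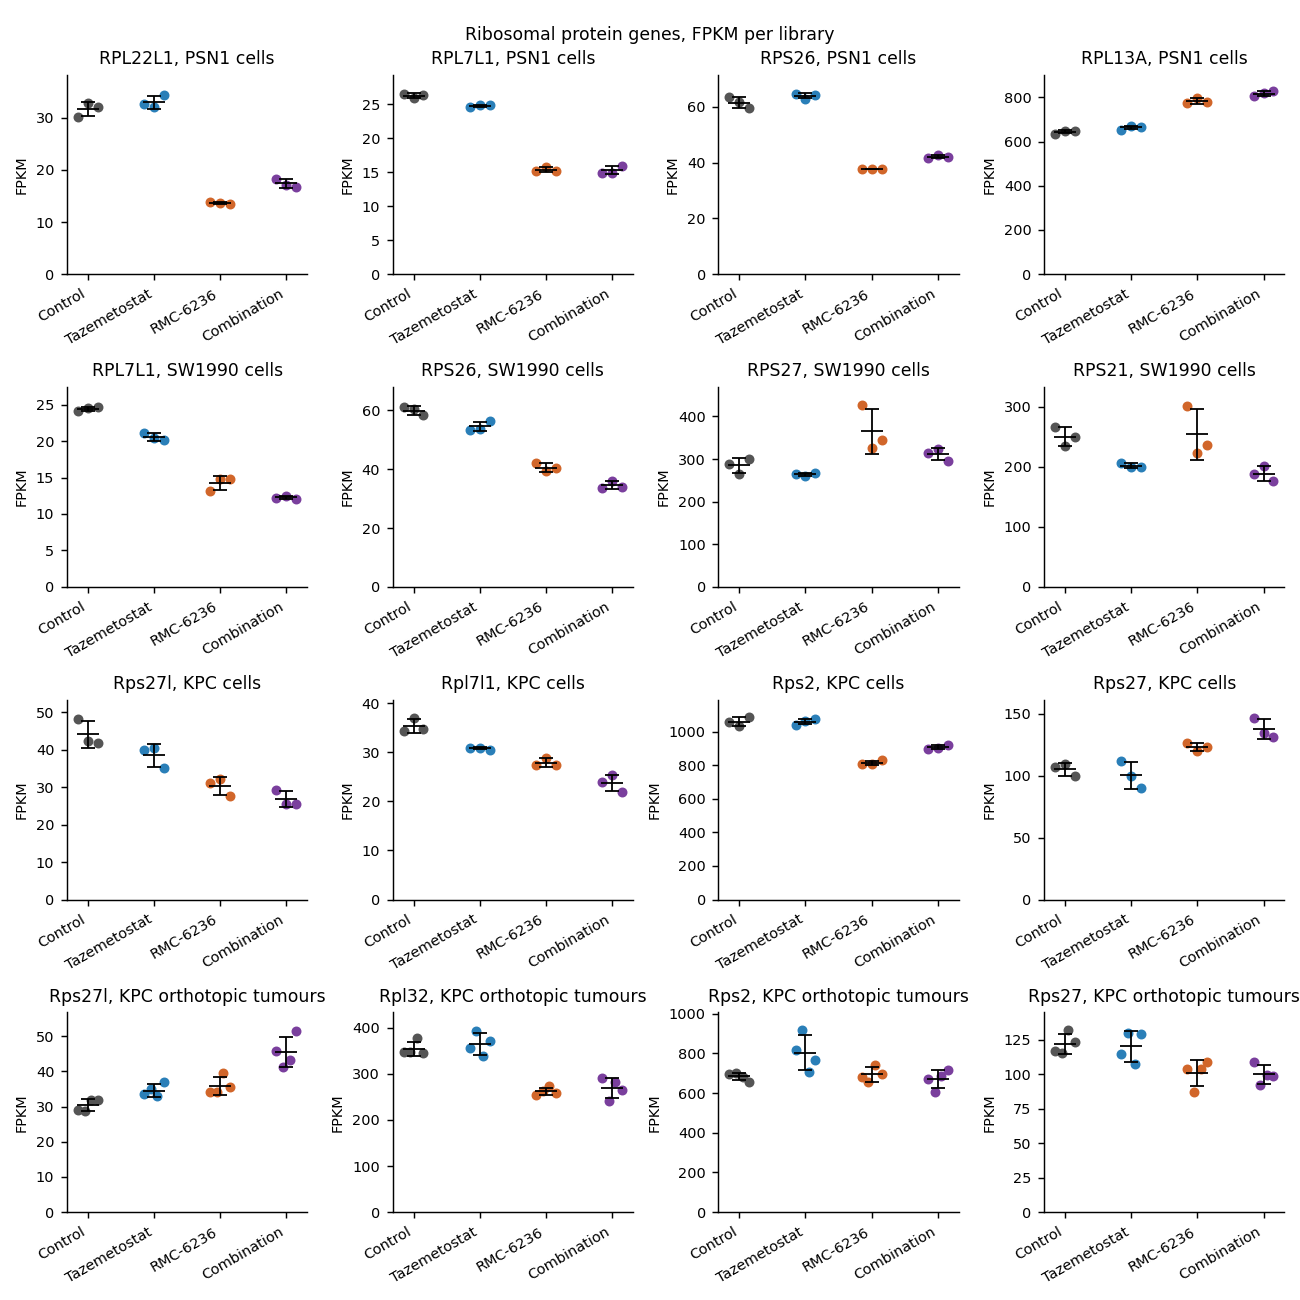
FPKM (y axis, from 0) of 4 ribosomal protein genes per table in each library (points) by arm, with arm mean and SD (black). RPL7L1 and RPS26 drop in both human lines with RMC-6236, and Rps27l is lower with RMC-6236 in KPC cells and higher in KPC tumours.

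Setting the tables side by side, 16 members fell under RMC-6236 in both human lines, which was 40% of the 40 that fell in PSN1 (of the 78 members measured in both) and 69.6% of the 23 in SW1990. Over all 11185 genes tested in both lines, 3325 fell in both, which was 80% of those lower in PSN1 and 67% of those lower in SW1990. The 16 members lower in both lines were RPL4, RPL6, RPL7L1, RPL8, RPL18, RPL24, RPL26, RPL26L1, RPL27, RPL32, RPS7, RPS14, RPS15, RPS16, RPS26 and RPS27A. The log2 differences had a Spearman correlation of 0.4 over these 78 members. In KPC cells and KPC tumours 17 members fell in both, 44.7% of the 38 in cells and 34.7% of the 49 in tumours, among them Rpl6, Rpl12, Rpl18, Rps3, Rps6 and Rps7, with a correlation of -0.28 over 83 members. Over all 12026 genes tested in both KPC tables, 1375 fell in both, 31.6% of those lower in cells and 55.1% of those lower in tumours. Rps27, Rpl22 and Rps27l had arms that did not overlap in either table and moved in opposite directions in cells and tumours. Rps2, which fell in KPC cells, was at 698, 700, 682 and 658 FPKM in control tumours and 682, 657, 743 and 696 under RMC-6236, with overlapping arms. No test of the difference between tables was made, because each table was normalized on its own.

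**Figure D3:**
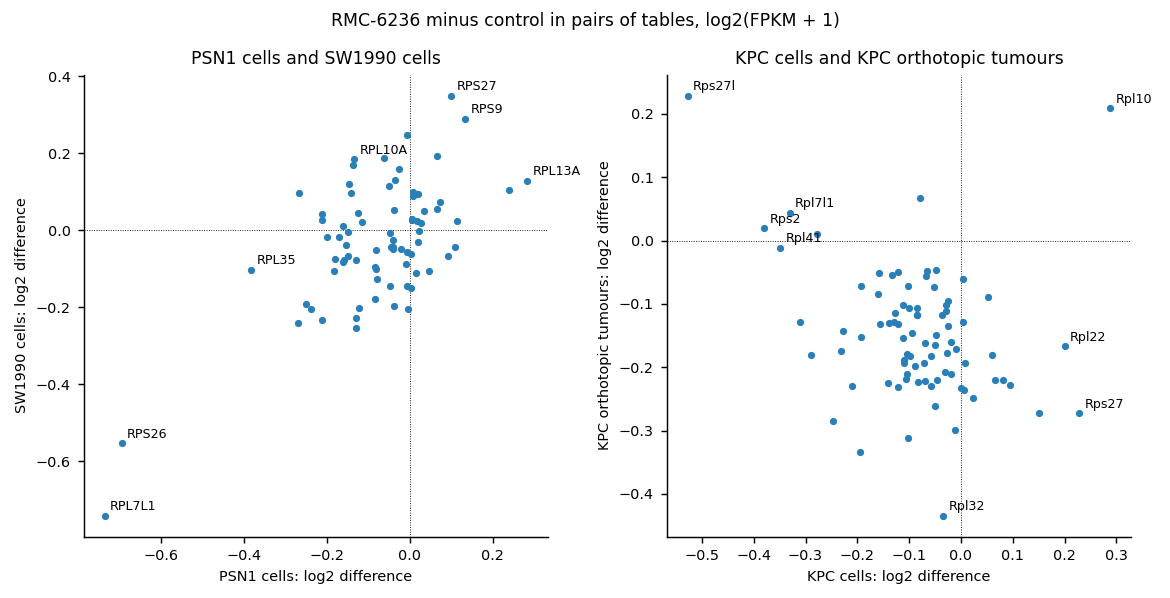
log2 difference of each ribosomal protein gene, RMC-6236 minus control, in PSN1 (x) and SW1990 (y), and in KPC cells (x) and KPC tumours (y), each point a gene. RPL7L1 and RPS26 are the lowest of the 78 genes in both human lines, while Rps27l lies at -0.53 in KPC cells and 0.23 in tumours.

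Genes that work with the ribosomal proteins moved further than the family itself in the cell lines. Under RMC-6236, all 32 listed ribosome biogenesis factors fell in PSN1 (median log2 difference -1.22), 31 of 32 in SW1990 (-1.40) and 30 of 32 in KPC cells (-0.86), against member medians of -0.05, -0.03 and -0.08. The largest falls were RRP9, which works on the small-subunit RNA, in PSN1 (64.8 to 17.0 FPKM, means), the assembly factor RRS1 in SW1990 (46.7 to 10.4) and the box C/D particle protein Nop56 in KPC cells (73.8 to 23.5). Chaperones and importers that carry new ribosomal proteins to the nucleus fell in 11 of 11 cases in PSN1 (-0.63), 11 of 11 in SW1990 (-0.88) and 10 of 11 in KPC cells (-0.53), with GRWD1, which escorts RPL3, at 27.9 and 12.2 FPKM in PSN1. Of all genes tested, 34.6% fell and 45.8% rose in PSN1, 41.7% and 30.7% in SW1990, and 35.8% and 37.9% in KPC cells.

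Mitochondrial ribosomal proteins, which build the separate ribosome of that organelle, fell in 57 of 78 cases in PSN1 (median -0.27, 8 rose), 69 of 78 in SW1990 (-0.46, 1 rose) and 57 of 78 in KPC cells (-0.26, 2 rose). Other TOP mRNAs, for translation factors and partners, moved in both directions: 8 of 18 fell and 8 rose in PSN1, 9 fell and 5 rose in SW1990, and 9 fell and 7 rose in KPC cells. Among them NPM1, a nucleolar chaperone, went from 399 to 218 FPKM in PSN1. Spliced hosts of small nucleolar RNAs with TOP starts fell in 7 of 8 cases in PSN1, 3 of 8 in SW1990 (1 rose) and 7 of 8 in KPC cells. Of the other TOP mRNAs 44.4% fell and 44.4% rose in PSN1, 50% and 27.8% in SW1990, and 50% and 38.9% in KPC cells. Most of these shares, and the 37.5% of hosts lower in SW1990, were not far from those of all genes given above, and nothing is read from them. FAU, a fusion gene whose protein releases RPS30, fell in PSN1 (log2 difference -0.20) and SW1990 (-0.30) and rose in KPC cells (0.10).

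The tumours had another order. There 21 of 32 biogenesis factors fell and 1 rose (median -0.35), mitochondrial ribosomal proteins fell in 14 of 78 cases and rose in 11 (0.02), and 3 of 11 chaperones fell (-0.12), beside 19.2% of all genes lower and 20.3% higher. The TOP-related lists moved with the members: 8 of 18 other TOP mRNAs fell and 0 rose (-0.14), all 8 small nucleolar RNA hosts fell (-0.42), and Fau fell from 399 to 273 FPKM. These lists were compared only by their counts and medians.

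**Figure D4:**
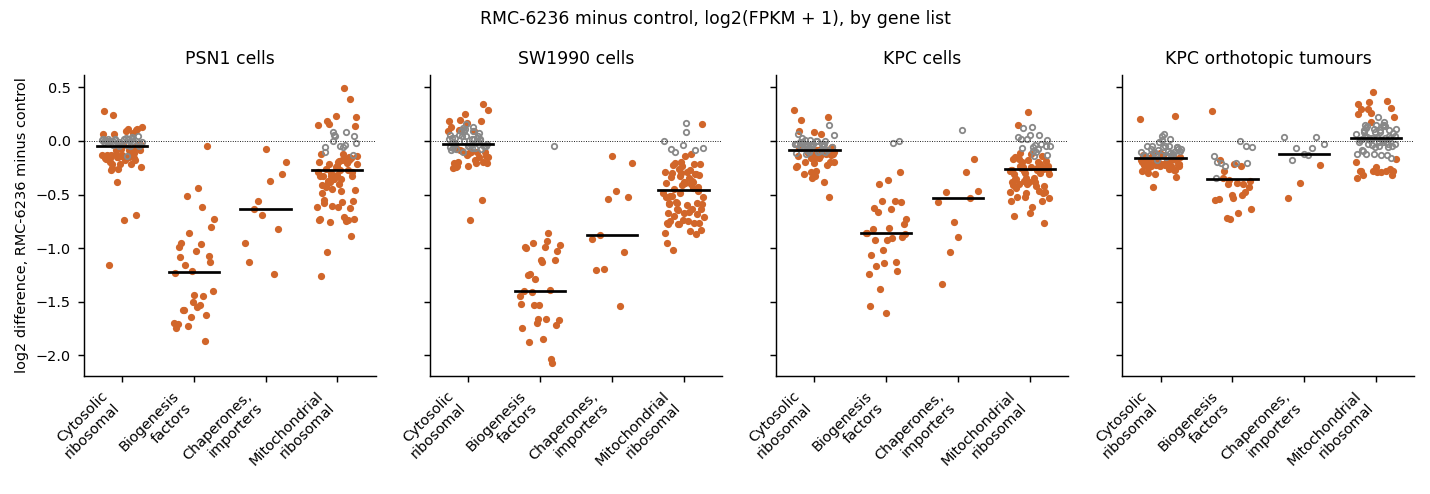
log2 difference (y axis), RMC-6236 minus control, of the cytosolic ribosomal protein genes and of 3 partner lists in each table; filled points passed the test, open points did not, and black lines are medians. In the 3 cell lines the biogenesis factors (medians -1.22, -1.40 and -0.86) lie far below the ribosomal proteins, and in the tumours the lists lie closer together.

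Tazemetostat alone was compared with control in each table. In PSN1 20 of 79 members rose and 10 fell, against 23.6% and 22.5% of all genes, with a median of 0.02, so the share of higher members was near that of all genes. The count of lower members was 6 without tazemetostat replicate 2. RPS12, a small-subunit protein, was at 413, 415 and 423 FPKM in control and 495, 489 and 494 under tazemetostat, and rose by a log2 difference of 0.24 ± 0.02 (adjusted p = 3.29e-06). RPS28 rose from 129, 124 and 129 to 158, 150 and 146 FPKM (0.24 ± 0.03, adjusted p = 1.55e-05), and RPL10 from 189, 190 and 190 to 218, 219 and 219 (0.20 ± 0.01, adjusted p = 5.94e-08). In all 3 genes the arms did not overlap. RPL5, which joins RPL11 in the particle that binds MDM2, went from 295, 305.1 and 299 to 275, 277 and 279 FPKM and fell by 0.11 ± 0.02 (adjusted p = 9.41e-05).

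In SW1990 39 of 78 members fell under tazemetostat and 0 rose, against 14.4% and 23.1% of all genes, with a median of -0.11 where the all-gene median was 0.04. With median ratio scaling 31 fell and with scaling on nuclear genes outside the family 33 fell, and 0 rose in either. No member passed in the higher direction by limma without its trend and robust options either. An unadjusted limma p under 0.05 in either direction was reached by 51 members (65.4%) and 5913 genes (45.8%). RPSA, a small-subunit protein also known as the laminin receptor, was at 234, 209 and 211 FPKM in control and 182, 183 and 183 under tazemetostat, and fell by 0.25 ± 0.04 (adjusted p = 0.000213). RPS21, its partner on the small subunit, went from 267, 234 and 249 to 206, 199 and 199 FPKM and fell by 0.31 ± 0.09 (adjusted p = 0.0223, or 0.105 without control replicate 1). RPL10, at 335, 315 and 312 FPKM in control and 300, 300 and 301 under tazemetostat, fell by 0.10 ± 0.03 (adjusted p = 0.0151), where in PSN1 it rose.

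In KPC cells 24 of 83 members fell under tazemetostat and 0 rose, against 25.5% and 18.6% of all genes, so the share of lower members (28.9%) was near that of all genes. With median ratio scaling 11 fell. Rpl7l1, at 31.0, 31.0 and 30.6 FPKM under tazemetostat, fell by 0.19 ± 0.05 (adjusted p = 0.00475), with every library below every control. The biogenesis factors fell in 30 of 32 cases in KPC cells (median -0.29), in 24 of 32 in PSN1 (-0.16) and in 19 of 32 in SW1990 (-0.20). Of all genes, 25.5%, 22.5% and 14.4% fell in the same comparisons. In the tumours 0 members passed in limma under tazemetostat, as did 0% of all genes in either direction. An unadjusted limma p under 0.05 was reached by 19 members (22.9%) and 1023 genes (7.55%). The member median there was 0.09, and 2 of 83 differences were below 0.

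Adding tazemetostat to RMC-6236 (combination minus RMC-6236) had the same prevailing direction as tazemetostat alone in PSN1 and SW1990. In PSN1 39 of 79 members rose and 7 fell, against 24.1% and 30.1% of all genes, with a median of 0.06. With median ratio scaling 55 rose and 3 fell. RPS12 was at 420, 438 and 407 FPKM under RMC-6236 and 526, 511 and 533 under the combination (0.31 ± 0.02, adjusted p = 1.93e-07). RPS28 went from 138, 141 and 135 to 167, 172 and 172 FPKM (0.30 ± 0.03, adjusted p = 1.32e-06), and RPL10 from 189, 192 and 192 to 229, 229 and 227 (0.26 ± 0.01, adjusted p = 2.93e-09). RPL22L1 was higher in the combination than under RMC-6236 (0.33 ± 0.04, adjusted p = 1.64e-05), in libraries that did not overlap. RPL5, at 289, 294 and 291 FPKM under RMC-6236 and 258, 264 and 262 under the combination, fell by 0.15 ± 0.02 (adjusted p = 3.22e-06).

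In SW1990 39 of 78 members fell and 1 rose, against 18.3% and 29.8% of all genes, with a median of -0.10. The count of lower members was 20 without combination replicate 3, 21 without combination replicate 1 and at most 40 without any other library. The count of higher members was 0 under either scaling. RPS21 went from 302, 223 and 237 FPKM under RMC-6236, with replicate 1 the highest, to 188, 201 and 177 under the combination, and fell by 0.42 ± 0.09 (adjusted p = 0.00318). RPSA went from 192, 195 and 202 to 176, 178 and 172 FPKM and fell by 0.16 ± 0.04 (adjusted p = 0.00333). The biogenesis factors fell with the members, in 25 of 32 cases (median -0.28), as did 40 of 78 mitochondrial ribosomal proteins (-0.15).

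In KPC cells 24 of 83 members rose under the combination relative to RMC-6236 and 2 fell, against 20.3% and 28.5% of all genes, with a median of 0.07. The count of higher members was 14 without combination replicate 1, 15 without RMC-6236 replicate 2, and 37 with median ratio scaling. Rpl39, a small protein at the tunnel exit, was at 45.5, 44.9 and 48.5 FPKM under RMC-6236 and 59.8, 51.8 and 54.4 under the combination (0.25 ± 0.06, adjusted p = 0.00349). Rpl41 rose to 238, 215 and 219 FPKM (0.20 ± 0.04, adjusted p = 0.00227), and Rps2 to 900, 903 and 924 FPKM (0.16 ± 0.02, adjusted p = 0.000121). These libraries lay above all RMC-6236 libraries and, for Rps2 and Rpl41, below all controls. Rpl7l1 went down to 23.9, 25.4 and 22.0 FPKM (log2 difference -0.23 ± 0.05, adjusted p = 0.00145) and so was lowest with both drugs. In the same comparison 24 of 32 biogenesis factors fell (median -0.22), opposite to the members.

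In the tumours 2 of 83 members rose in the combination relative to RMC-6236 and 0 fell, against 5.16% and 2.97% of all genes. They were Rps27l (0.33 ± 0.07, adjusted p = 0.00752) and Rpl39, at 49.4, 47.2, 56.5 and 50.8 FPKM under RMC-6236 and 63.9, 59.9, 59.5 and 65.4 under the combination (0.28 ± 0.08, adjusted p = 0.04, and 0.111 without combination replicate 4). Leaving out 9 of the 16 tumours in turn left 1 of these calls, that of Rps27l. Acinar markers, which come from normal pancreas, summed to 5.28 to 93.4 FPKM under RMC-6236 and 88.9 to 3150 FPKM under the combination, and their part in these differences was not tested.

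The interaction asks whether the tazemetostat difference changed when RMC-6236 was present. In KPC cells it was positive and called in 31 of 83 members, with 0 negative, against 12.1% and 13.7% of all genes. The count was 18 with scaling on nuclear genes outside the family. It was 14 without combination replicate 1, 16 and 17 without RMC-6236 replicates 2 and 1, 18 and 20 without tazemetostat replicates 3 and 2, and 19 without control replicate 2. The highest were Rpl6l (0.31 ± 0.10, adjusted p = 0.0402), whose reads may be shared with Rpl6, and Rps13 of the small subunit (0.23 ± 0.07, adjusted p = 0.02). Of the small-subunit genes 16 of 32 were called, and of the large-subunit genes 13 of 46. In PSN1 7 of 79 members were called positive and 0 negative, against 9.8% and 13.8% of all genes, with RPL22L1 the largest (0.27 ± 0.06, adjusted p = 0.00375), and the count was between 2 and 6 with any library left out, 22 with median ratio scaling and 2 with scaling on nuclear genes. In SW1990 6 of 78 were positive and 0 negative, against 9.03% and 6.19%, with between 2 and 8 positive when any library was left out and 1 under either scaling. In the tumours 0 members were called in limma, against 1.49% and 0.369% of all genes, with 13 members (15.7%) and 1950 genes (14.4%) at an unadjusted p under 0.05. Over members, the tazemetostat difference without RMC-6236 and the one with it, which share no library, had Spearman correlations of 0.87 in PSN1, 0.53 in SW1990, 0.6 in KPC cells and 0.12 in tumours, given as descriptions.

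**Figure D5:**
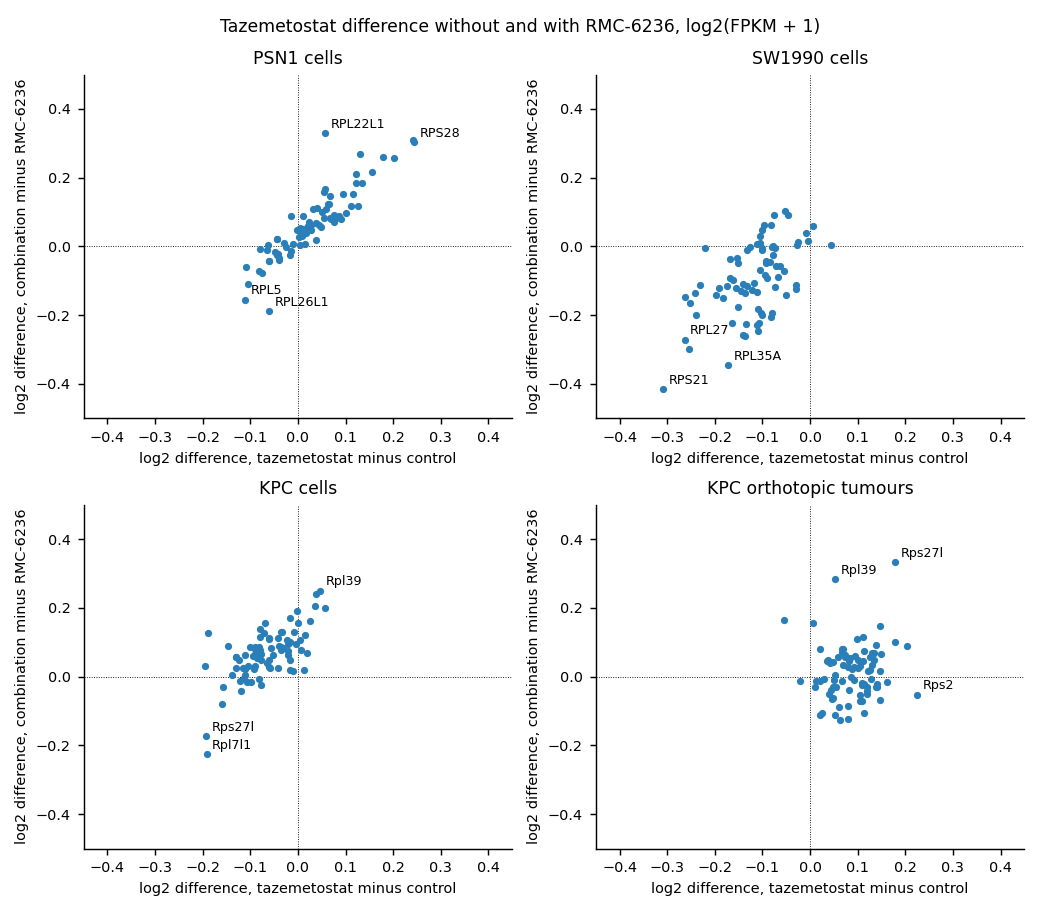
log2 difference of each ribosomal protein gene for tazemetostat minus control (x axis) and combination minus RMC-6236 (y axis) in the 4 tables, with RPS10 of the human tables left out for its spread. Most points lie right of and above 0 in PSN1, left of and below 0 in SW1990, and left of and above 0 in KPC cells.

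Under the combination relative to control, 27 of 79 members fell and 23 rose in PSN1, against 37.1% and 45.5% of all genes, with a median of -0.00. RPS28 (0.41 ± 0.03, adjusted p = 1.7e-08) and RPS27 (0.37 ± 0.03, adjusted p = 8.89e-08) were the highest. RPS27 stood at 191, 188 and 196 FPKM in control and 246, 244 and 254 under the combination. RPL22L1 (-0.83), RPL7L1 (-0.74), RPS26 (-0.54) and RPL26L1 (-0.40) were the lowest. In SW1990 41 of 78 fell and 7 rose, against 40.9% and 38.3% of all genes, with a median of -0.11, and 18 fell and 7 rose with median ratio scaling. RPL7L1 (-0.94 ± 0.04, adjusted p = 2.23e-10) and RPS26 (-0.78 ± 0.04, adjusted p = 4.65e-10, at 33.6, 36.1 and 33.9 FPKM) were again lowest, and RPS9 highest (0.38 ± 0.05, adjusted p = 9.98e-06).

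In KPC cells 18 of 83 fell and 14 rose in this comparison, against 38.7% and 37.8% of all genes, and 14 fell and 20 rose with median ratio scaling. Rps27l (-0.70 ± 0.08, adjusted p = 4.06e-06) and Rpl7l1 (-0.56 ± 0.05, adjusted p = 1.33e-07) were lowest, while Rps27, at 146, 135 and 131 FPKM, was highest (0.38 ± 0.07, adjusted p = 0.000219). In the tumours 39 of 83 fell and 4 rose, against 25.7% and 26.7% of all genes, with a median of -0.14. In these combination tumours epithelial markers summed to 833 to 1360 FPKM, macrophage markers to 1520 to 2090 and acinar markers to 88.9 to 3150, where the acinar sum in control was 12.1 to 43.6 FPKM, and their part in the counts was not tested. Rpl23, at 245, 229, 237 and 245 FPKM, was lowest (-0.41 ± 0.05, adjusted p = 1.32e-05). Rps27l was highest (0.56 ± 0.07, adjusted p = 1.01e-05), and the others called higher were Rpl10, Rpl39 and Rplp1. Between 2 and 4 members rose when any tumour was left out, and the rise of Rpl39 (0.20 ± 0.08, adjusted p = 0.047) was lost in most of those fits, with an adjusted p of 0.122 without control replicate 2. The comparisons with control share the control libraries within each table, as the combination is shared by the comparisons that include it.

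The relatives differed between the tables. RPL7L1 fell under RMC-6236 in PSN1, SW1990 and KPC cells, and was at 21.6, 23.5, 22.7 and 20.6 FPKM in control tumours and 24.0, 22.0, 24.0 and 21.3 under RMC-6236, with overlapping arms. Its relative RPL7 fell by 0.04 in PSN1, differed by -0.05 in SW1990 without passing, rose by 0.08 in KPC cells and fell by 0.22 in tumours, all on the log2 scale. RPL22L1, which fell in PSN1, was at 17.0, 15.9 and 15.9 FPKM in KPC control cells and 14.7, 15.2 and 16.5 under RMC-6236, with overlapping arms (log2 difference -0.07), and in SW1990 its control mean of 6.80 FPKM left it out of the family. RPL26L1 fell in both human lines under RMC-6236 and was lower again in the combination than under RMC-6236 alone (-0.19 in PSN1 and -0.15 in SW1990), while RPL26 fell by 0.13 in PSN1 and by 0.08 in SW1990. RPS27L was under the required level in both human lines, at control means of 3.77 and 1.71 FPKM.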

How the data were processed

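RNA from PSN1, SW1990 and KPC cells (3 libraries per arm) and KPC tumours grown in the pancreas (4 per arm) was sequenced by the authors with a stranded mRNA kit, per the labels' protocols. The submitters' processing notes name FastQC 0.11.2, STAR 2.5.3a, StringTie 1.3.1c and the build hg38 for every sample; a mouse build, the counting strand and the treatment of multi-mapping reads are not given in the sources used here. The deposited values are FPKM per gene and were used as deposited. Of 67 samples 52 were used; 15 samples of subcutaneous tumours were not analysed here. FPKM give no read totals, so depth and counting error are unknown, and precision rests on the number of libraries.

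Genes at 1 FPKM or more in at least 3 libraries (4 in tumours) were tested in each table on log2(FPKM + 1), a scale that understates changes of low genes, with limma 3.58.1 in R 4.3.3 (all 4 arms in a fit, trended robust variances). Benjamini-Hochberg adjustment covered all genes tested in a table, and a gene was called at an adjusted p under 0.05. Errors printed beside log2 differences are standard errors. The fit was run on simulated data with independent noise for each gene, where recovery of log2 differences of 1 and few false calls were required. Recovery of differences of 0.25, the range within which most members lay, was not required. Figures used matplotlib 3.10.9. Members and gene lists were chosen with earlier results of these data known. Genes named were the 4 members highest in control, those next to the control minimum of 10 FPKM, the 4 lowest and 4 highest log2 differences per comparison, the relatives, members called against the majority and up to 4 called genes per partner list. RPL10 in SW1990 under tazemetostat, Rps26 in KPC cells and members set beside another table were named after their values were seen. Some members that the rule names are not reported here. Alternatives were a pseudocount of 0.1, no filter, 2 scalings, plain variance moderation, a replicate block, a control minimum of 50 FPKM, a share without mitochondrially encoded genes and each library left out.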

Additional observations from a re-analysis of the deposited data

Results flagged for a closer look

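Among 44 sets of 4 tumours examined for a value far from the rest, 1 was found, where chance gives about 1 in 20. It was Rpl32 in control tumours, at 376.9 FPKM in replicate 3, where the lowest control was at 345.3 FPKM. Its gap was 0.921 of the range.

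For 26 members, 104 pairs of comparisons were set against each other between PSN1 and SW1990 or between KPC cells and tumours. In 17 of them every treated library lay on one side of every reference library in one table and on the other side in its partner. Over all genes tested in both tables of a pair, 8.9% of such pairs did so. That share ran from 1.43% for tazemetostat alone in the KPC tables to 14.3% for the combination relative to RMC-6236 in the human lines. The 26 members were named for the size of their differences, so nothing is read from their share, and none of these differences between tables was tested.

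In PSN1 and then SW1990, the log2 differences under tazemetostat alone were 0.2012 and -0.09584 for RPL10, 0.04481 and -0.1014 for RPL13A, 0.1259 and -0.08113 for RPL28, and 0.2446 and -0.07663 for RPS28. Under RMC-6236 alone they were -0.1345 and 0.1851 for RPL10A. For the combination relative to RMC-6236 they were 0.1093 and -0.2273 for RPL35, 0.08025 and -0.4157 for RPS21, 0.159 and -0.2249 for RPS26, and 0.2696 and -0.2229 for RPS27. SW1990 RMC-6236 replicate 1, which stood apart in share, was the highest of its arm for each of these genes. It was at 302 FPKM against 223 and 237 for RPS21, and at 426 against 326 and 345 for RPS27.

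In KPC cells and then tumours, the values under RMC-6236 alone were 0.2001 and -0.1664 for Rpl22, 0.2286 and -0.2722 for Rps27, and -0.5271 and 0.2291 for Rps27l. Under the combination relative to control they were 0.05754 and -0.1468 for Rplp0, 0.3841 and -0.284 for Rps27, and -0.6997 and 0.5614 for Rps27l. Under tazemetostat alone they were -0.1916 and 0.1466 for Rpl7l1, and -0.1925 and 0.1786 for Rps27l, where 0 members passed the test in the tumours. The 2 relatives Rps27 and Rps27l thus account for 5 of the 8 mouse pairs.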

How the results depend on the processing

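The direction of every named called difference held in all alternatives run: of 162 such results, 123 stayed past the threshold throughout, 39 lost the call in at least 1 alternative and 0 changed sign. A pseudocount of 0.1 left every count of called members within 1.5 times. Unless a value shows otherwise, the cause of a change below was not tested.

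With median ratio scaling, PSN1 had 3 lower members for the combination relative to RMC-6236 and 22 higher in the interaction. In SW1990 the same scaling gave 6 lower and 24 higher under RMC-6236, with the member median turned from -0.03 to 0.09432, 18 lower under the combination against control, 0 higher for the combination relative to RMC-6236 and 1 higher in the interaction. In KPC cells it gave 11 lower under tazemetostat, and 1 lower and 37 higher for the combination relative to RMC-6236. With scaling on nuclear genes outside the family, the SW1990 counts under RMC-6236 were 13 lower and 19 higher with a median of 0.03681, 0 were higher for its combination relative to RMC-6236, and the interaction had 2 higher members in PSN1, 1 in SW1990 and 18 in KPC cells. In the tumours 2 were then higher under the combination against control.

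Without the filter on low values, the interaction had 3 higher members in PSN1 and 14 in KPC cells, the combination relative to RMC-6236 had 22 lower and 0 higher in SW1990, 1 lower in KPC cells and 1 higher in tumours, and the combination against control had 2 higher in tumours. With plain variance moderation, 6 were lower under tazemetostat in PSN1 and 15 in KPC cells, the interaction had 1, 1 and 13 higher in PSN1, SW1990 and KPC cells, and the combination relative to RMC-6236 had 0 higher in SW1990 and 1 lower in KPC cells. With a control minimum of 50 FPKM, fewer members remained: 1 was lower for the combination relative to RMC-6236 in KPC cells, and in tumours 1 was higher for that comparison and 1 under RMC-6236.

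The share of summed FPKM without mitochondrially encoded genes had a ratio of 0.9949 for RMC-6236 to control, 1.029 for the combination to control and 1.035 for the combination to RMC-6236 in PSN1, 1.03 (0.9973 without RMC-6236 replicate 1, an alternative chosen after seeing the data) and 0.9537 for the first and second in SW1990, and 0.9511 for RMC-6236 to control in KPC cells.

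Same-numbered libraries were taken as paired only if every correlation was over 0.1, a level reached by 2 of 18 PSN1 pairs, 3 of 18 SW1990 pairs, 1 of 18 KPC cell pairs and 4 of 24 tumour pairs. Correlations ran from -0.051 to 0.16 in PSN1, -0.16 to 0.39 in SW1990, -0.095 to 0.13 for KPC cells and, for the tumours, -0.4 to 0.34, and 5 of 12, 5 of 12, 8 of 12 and 4 of 16 libraries correlated best with their own number. With the replicate number as a block, the interaction had 4 higher members in PSN1 and 3 in SW1990, the combination relative to RMC-6236 had 0 higher in SW1990, and every other count stayed within 1.5 times.

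Leaving out each library in turn gave 6 to 12 lower members under tazemetostat in PSN1, 0 to 1 lower and 2 to 6 higher in the PSN1 interaction, 20 to 40 lower and 0 to 3 higher for the combination relative to RMC-6236 in SW1990, and 2 to 8 higher in the SW1990 interaction. In KPC cells it gave 24 to 40 lower under RMC-6236, 1 to 2 lower and 14 to 34 higher for the combination relative to RMC-6236, and 14 to 33 higher in the interaction. In tumours it gave 27 to 52 lower and 1 to 2 higher under RMC-6236, 2 to 4 higher under the combination against control and 1 to 2 higher for the combination relative to RMC-6236. Read depth behind these FPKM is unknown.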

Other observations

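Further lists were counted under RMC-6236, beside all genes tested, of which 34.6% fell and 45.8% rose in PSN1, 41.7% and 30.7% in SW1990, 35.8% and 37.9% in KPC cells, and 19.2% and 20.3% in tumours. Genes of translation control, which regulate initiation factors and ribosome use, fell in 11 of 17 cases in PSN1 (median log2 difference -0.24, 2 rose), 12 of 16 in SW1990 (-0.49, 2 rose), 9 of 17 in KPC cells (-0.22, 4 rose) and 9 of 17 in tumours (-0.27, 1 rose). Genes of ribosome quality control and stress fell in 7 of 11 cases and rose in 4 in PSN1, fell in 5 of 11 and rose in 2 in SW1990, and fell in 5 of 10 and rose in 3 in KPC cells. In tumours 2 of 10 fell and 2 rose, which there was near the shares of all genes. Targets of p53, which free ribosomal proteins can activate through MDM2 in cells with intact p53, rose in 7 of 9 cases and fell in 2 in PSN1, rose in 6 of 10 and fell in 1 in SW1990, rose in 4 of 9 and fell in 4 in KPC cells, and rose in 4 of 9 with 0 lower in tumours. These lists hold few genes and were compared only by their counts.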
